A study of Lotus japonicus with 10 samples.

Results

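The genes described here are 8 names on a focused Lotus japonicus oligonucleotide array, 3 whose name starts with 4Meth and 5 whose name starts with 7Methyl. They are read as putative O-methyltransferases of isoflavonoids that act on the B ring (4Meth) and on the A ring (7Methyl). The files do not spell the prefixes out, and no activity is given for any of the names. Members were the non-control probes that carry 1 of the 8 names, which gave 16 probes out of 5716 and 8 names out of 3148. The array carries 15 names with these prefixes, 5 of them 4Meth and 10 of them 7Methyl. The 8 names are those with at least 1 probe bright enough to be tested, so the list already rests on signal in these leaves, and no count over it is evidence about methyltransferases at large. The other 7 names have 14 probes, none of which was tested.

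Isoflavonoids are phenolic compounds found mainly in legumes, where several serve as phytoalexins, antimicrobial compounds made after attack or elicitation. Isoflavone synthase builds their skeleton, and O-methyltransferases then move a methyl group from S-adenosylmethionine to a hydroxyl group on it. Vestitol, the isoflavan phytoalexin of L. japonicus, carries a methoxyl group on its B ring and a free hydroxyl on its A ring, and methylation of the B ring in legumes is generally placed early, before the hydroxylation and reduction steps that lead to pterocarpans and isoflavans.

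Total RNA came from mature leaves of L. japonicus MG20, an accession widely used in genetic mapping of this model legume, from plants raised in a glasshouse. Unelicited leaves (0 h) gave 4 arrays, leaves after 3 h in 10 mM reduced glutathione (GSH) gave 3, and leaves after 6 h in GSH gave 3. Elicited leaves were cut off and kept under the GSH solution with shaking at 200 rpm and 28 °C. No leaves shaken without GSH were analysed here, so GSH, detachment, submersion and time cannot be told apart. The design text calls the replicates biological and gives no more on how plants were shared, so p-values measure the spread between these samples. In RNA from whole leaves, fewer cells of a type and less RNA per cell cannot be told apart.

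Each RNA was labelled with Cy3 and hybridised to its own array. The scanner software marked 2644 to 3805 probes per array (46.3% to 66.6% of the non-control probes) as well above background and 0 spots as saturated. Unelicited replicates 1 and 2 lay on slide 1 and the other 8 arrays on slide 2. The correlation across probes between 2 unelicited arrays was 0.973 or 0.978 on the same slide, and 0.827 to 0.853 on different slides, so the changes named below are given on all 10 arrays and, beside these, on the 8 arrays of slide 2. Leaf markers could not be read, since 0 names of the leaf marker list and 0 of the root and nodule marker list are on the array. A level here is the log2 of a probe's signal after subtraction of the 75th percentile of its array (on the log2 scale), and levels of different probes are not set against each other. Precision is limited by having 3 or 4 arrays a group.

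Most methyltransferase names with signal were changed after GSH, and they did not move one way. In GSH-treated leaves, 4Meth1, 4Meth5 and 7Methyl8 rose at both times, and 7Methyl7 fell at both times. 4Meth2 was lower at both times close to background, on a probe that entered the test through its unelicited arrays, and neither call held under another background correction. 7Methyl2 rose at 6 h, and its 3 h call depended on the slide and on the scaling. The calls for 7Methyl3 and 7Methyl10 depended on which unelicited arrays were used. At 3 h, 7 of the 11 tested probes were higher than in unelicited leaves, 2 were lower and 2 did not pass (limma, Benjamini-Hochberg adjusted p under 0.05). Of all tested probes, 74.2% were changed at 3 h, 37.5% higher and 36.7% lower. At 6 h, 8 of the 11 probes were higher, 2 were lower and 1 did not pass, against 75.9% of all tested probes changed, 37.5% higher and 38.4% lower. Most of the array changed, so a change as such does not set these names apart. Calls were balanced between the directions over all tested probes. Among the members on all 10 arrays, more probes were higher than lower, with 3 names counted on both probes. By name, 4 were higher and 2 lower at 3 h, and 5 and 2 at 6 h. On slide 2 alone, 5 probes were higher and 3 lower at 3 h, from 3 names each way. At 6 h there, 7 probes were higher and 3 lower, from 4 and 3 names. Of all tested probes on slide 2, 39.9% were higher and 38.2% lower at 3 h. The lean was not tested because the names were chosen by signal.

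**Figure D1:**
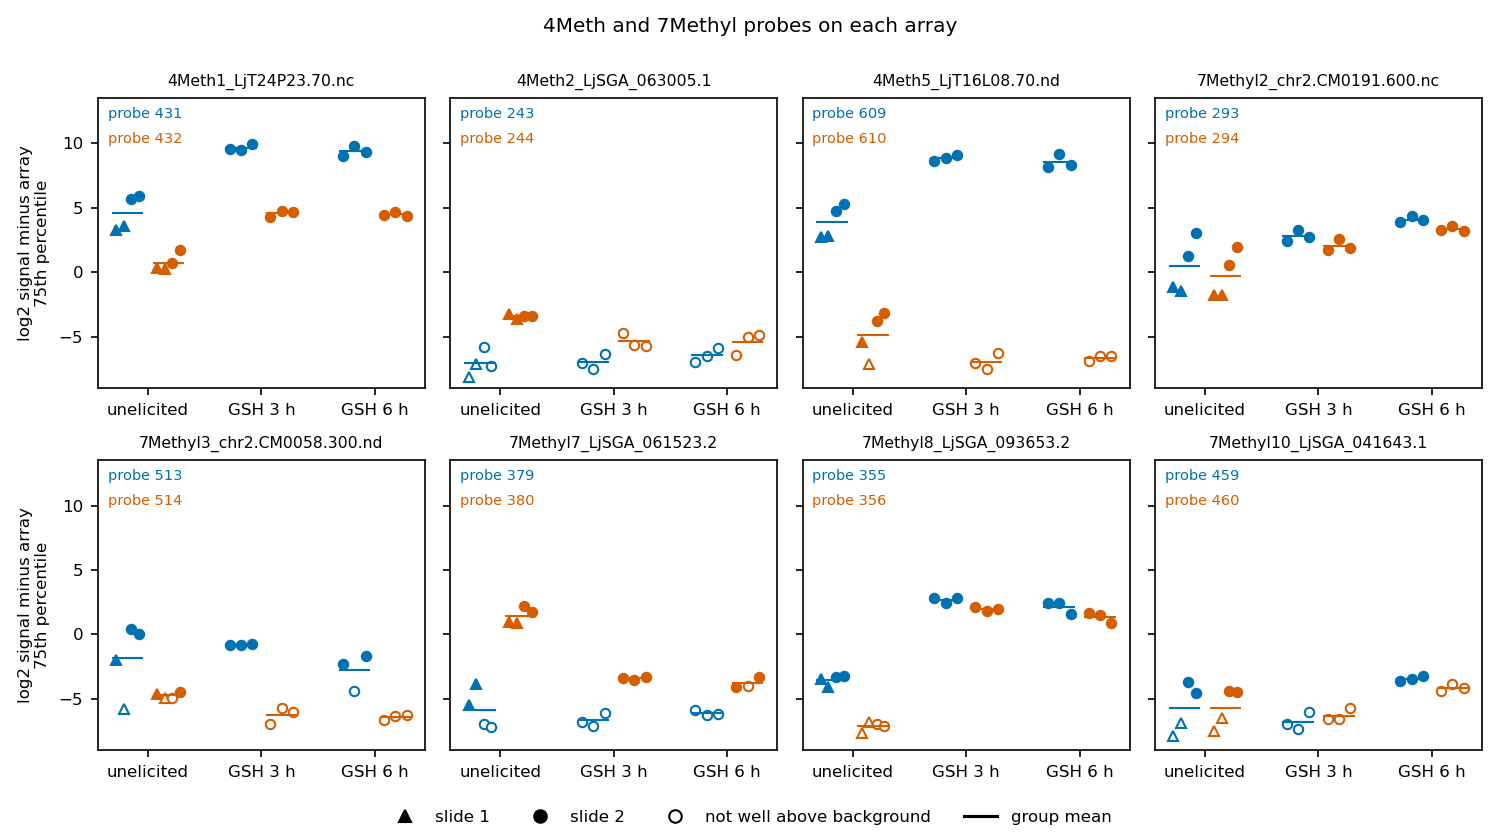
Log2 signal relative to the 75th percentile of the array for both probes of each of the 8 names, on 4 unelicited (0 h), 3 GSH 3 h and 3 GSH 6 h arrays. Triangles are slide 1, circles slide 2, open symbols spots not well above background, and lines group means. 4Meth1, probe 609 of 4Meth5 and 7Methyl8 lie higher on every GSH array than on every unelicited array, and probe 380 of 7Methyl7 lies lower.

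The 4Meth names split into 2 that rose and 1 that was lower. For 4Meth1_LjT24P23.70.nc, probe 431 had log2 signals of 3.31, 3.59, 5.65 and 5.92 at 0 h, of 9.55, 9.50 and 9.98 at 3 h, and of 9.06, 9.83 and 9.37 at 6 h. Probe 432 of the same name had log2 signals of 0.31, 0.29, 0.72 and 1.69 at 0 h, of 4.31, 4.73 and 4.69 at 3 h, and of 4.48, 4.68 and 4.36 at 6 h. On both probes every GSH array lay above every unelicited array, and the 3 h and 6 h arrays overlapped. The log2 fold change of probe 431 was 5.06 ± 0.63 (SE) at 3 h (adjusted p = 3.80e-05) and 4.80 ± 0.63 at 6 h (adjusted p = 5.25e-05). Probe 432 gave log2 fold changes of 3.82 ± 0.36 (adjusted p = 5.46e-06) and 3.75 ± 0.36 (adjusted p = 5.67e-06) at the same times.

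The unelicited arrays of slide 2 were brighter than those of slide 1 by 2.34 (log2) on probe 431 and by 0.90 on probe 432. On slide 2 alone the log2 fold changes of probe 431 were smaller, at 3.89 and 3.63 (adjusted p = 5.44e-06 and 7.38e-06 at 3 h and 6 h), and those of probe 432 were 3.37 and 3.30. The rise of 4Meth1 thus passed on either set of arrays, at a size that depended on the unelicited arrays used. Quantile normalization gave smaller log2 fold changes on probe 431, of 2.14 at 3 h and 1.96 at 6 h, which still passed.

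4Meth5_LjT16L08.70.nd rose along with 4Meth1. Its probe 609 had log2 signals of 2.72, 2.84, 4.72 and 5.30 at 0 h, of 8.65, 8.87 and 9.12 at 3 h, and of 8.18, 9.14 and 8.34 at 6 h. The GSH arrays lay above all 4 unelicited arrays and overlapped between the times. Its log2 fold change was 4.98 ± 0.62 at 3 h (adjusted p = 3.81e-05) and 4.65 ± 0.62 at 6 h (adjusted p = 5.93e-05), or 3.87 and 3.54 on slide 2 alone and 2.39 and 1.83 under quantile normalization. The other probe of the name, 610, did not follow it. Probe 610 was near background on all 6 GSH arrays and on unelicited replicate 2, had log2 signals of -5.42, -3.77 and -3.17 on unelicited replicates 1, 3 and 4, and was not tested. The rise of 4Meth5 therefore rests on 1 of its 2 probes.

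4Meth2_LjSGA_063005.1 went the other way, near the limit of detection. On all 6 GSH arrays probe 244 was not well above background, and there its log2 signals lay between -6.39 and -4.74, against -3.27, -3.61, -3.42 and -3.37 on the unelicited arrays. The groups did not overlap. Each GSH array was given its own signal or the lowest signal that counted as above background there, whichever was higher. On that basis the probe was 2.31-fold lower at 3 h and 1.83-fold lower at 6 h. From its signals as measured, limma gave log2 fold changes of -1.94 and -2.01 (adjusted p = 0.00138 and 0.00105). Probe 244 entered the test only through its unelicited arrays, which favours a lower call, so its p-values are no support for a fall. Slide hardly touched this probe, with unelicited arrays of slide 2 above those of slide 1 by 0.04 (log2), and on slide 2 alone both calls held (adjusted p = 0.00545 at 3 h and 0.00428 at 6 h). With another background correction (normexp, a model of spot over local background), the log2 difference of probe 244 was 0.40 at 3 h and -0.23 at 6 h, and neither call held. With quantile normalization the 3 h call was lost as well (adjusted p = 0.110). Probe 243 of this name stayed near background on all 10 arrays.

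The 7Methyl names held both the largest rise and the largest fall among the 11 tested probes at 3 h and at 6 h. 7Methyl8_LjSGA_093653.2 rose on both of its probes. Probe 355 had log2 signals of -3.47, -4.04, -3.27 and -3.22 at 0 h, of 2.82, 2.46 and 2.84 at 3 h, and of 2.44, 2.41 and 1.57 at 6 h. Probe 356 was near background on all 4 arrays at 0 h and had log2 signals of 2.17, 1.81 and 2.01 at 3 h and of 1.68, 1.52 and 0.86 at 6 h. On both probes the GSH arrays stood clear of the unelicited ones, and the 6 h group mean was below the 3 h group mean. The log2 fold change of probe 355 was 6.21 ± 0.32 at 3 h (adjusted p = 1.05e-07) and 5.64 ± 0.32 at 6 h (adjusted p = 1.50e-07), which is larger in size than that of 92.7% and 88.0% of tested probes. Set against the lowest signal that counted as well above background on each unelicited array, probe 356 was 138-fold higher at 3 h. At 6 h it was 88.5-fold higher on the same basis. From its signals as measured, limma gave log2 fold changes of 9.12 at 3 h and 8.48 at 6 h (adjusted p = 1.45e-08 and 1.20e-08). Probe 356 entered the test only through its GSH arrays, which favours a higher call, so its p-values are no support for a rise. The unelicited arrays of 7Methyl8 differed little by slide, by 0.51 (log2) on probe 355 and 0.21 on probe 356. On slide 2 alone probe 355 gave log2 fold changes of 5.95 and 5.39. There probe 356 passed at both times (adjusted p = 7.38e-08 and 8.31e-08), with the same limit. Under normexp the log2 fold changes of both probes lay between 4.20 and 4.55. The size of the rise on probe 356 thus depended on the background correction, and the folds given for it are not lower bounds.

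7Methyl7_LjSGA_061523.2 fell. Probe 380 had log2 signals of 0.95, 0.88, 2.24 and 1.72 at 0 h, of -3.41, -3.54 and -3.30 at 3 h, and of -4.05, -3.99 and -3.29 at 6 h, where replicate 2 was not well above background. All 6 GSH arrays lay below all 4 unelicited arrays. The log2 fold change was -4.86 ± 0.37 at 3 h (adjusted p = 1.32e-06) and -5.22 ± 0.37 at 6 h (adjusted p = 7.30e-07), and on slide 2 alone it was -5.39 and -5.76. The size of this fall depended on the background correction, with -2.85 at 3 h and -3.45 at 6 h under normexp. Probe 379 of the name was well above background only on unelicited replicates 1 and 2, at log2 signals of -5.48 and -3.85, and was not tested.

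7Methyl2_chr2.CM0191.600.nc was higher in GSH-treated leaves, with wide spread among unelicited arrays. Probe 293 had log2 signals of -1.11, -1.42, 1.29 and 3.05 at 0 h, of 2.41, 3.26 and 2.71 at 3 h, and of 3.88, 4.35 and 4.05 at 6 h. Probe 294 had log2 signals of -1.79, -1.73, 0.55 and 1.95 at 0 h, of 1.72, 2.60 and 1.90 at 3 h, and of 3.28, 3.63 and 3.22 at 6 h. At 6 h every array lay above every unelicited array, whereas at 3 h unelicited replicate 4 lay within the range of the GSH arrays on probe 293 and above 2 of the 3 on probe 294. The 2 unelicited arrays of slide 2 exceeded those of slide 1 by 3.43 (log2) on probe 293 and 3.02 on probe 294, a larger difference than for 96.7% and 95.1% of tested probes.

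At 6 h the log2 fold change of 7Methyl2 was 3.64 ± 0.92 on probe 293 (adjusted p = 0.00446) and 3.63 ± 0.81 on probe 294 (adjusted p = 0.00215). On slide 2 alone these were 1.93 and 2.13 (adjusted p = 0.00614 and 0.00187). Under quantile normalization the 6 h call was lost on probe 293 (adjusted p = 0.0550). At 3 h the log2 fold changes were 2.34 ± 0.92 (adjusted p = 0.0405) and 2.33 ± 0.81 (adjusted p = 0.0240). On slide 2 alone they were 0.62 and 0.82, and neither passed (adjusted p = 0.273 and 0.116). Neither 3 h call held under quantile normalization (adjusted p = 0.180 on probe 293 and 0.0851 on probe 294) or with arrays scaled on probes above background everywhere (adjusted p = 0.212 and 0.159). That of probe 293 was lost under normexp (adjusted p = 0.0788) and with no filter on dim probes (adjusted p = 0.0533). The 3 h call of probe 293 was also lost without any one of unelicited replicates 1 and 2 or of the 6 GSH arrays, and that of probe 294 without unelicited replicate 1 or 2 or without GSH 3 h replicate 2 or 3 (adjusted p between 0.0513 and 0.112).

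7Methyl10_LjSGA_041643.1 was dim, and its 6 h arrays were brighter than its 3 h arrays. Probe 459 was not well above background at 3 h, with log2 signals of -6.94, -7.33 and -6.01, and had -3.63, -3.50 and -3.20 at 6 h. Among unelicited arrays it was well above background on slide 2 alone, with -3.67 and -4.52 on replicates 3 and 4 and dim spots of -7.90 and -6.84 on replicates 1 and 2. The 6 h arrays therefore lay just above the brighter unelicited arrays, and the 3 h arrays lay with the dimmer ones. On all 10 arrays the log2 fold change was 2.29 ± 0.88 at 6 h (adjusted p = 0.0364) and -1.03 ± 0.88 at 3 h (adjusted p = 0.304). With only slide 2 used these turned into 0.65 at 6 h (adjusted p = 0.193) and -2.67 at 3 h (adjusted p = 0.000418). Probe 459 entered the test only through its 6 h arrays, which favours a higher value there. Its 6 h call is thus no support for a rise. The 6 h call was also lost without unelicited replicate 1 or 2, without GSH 3 h replicate 1 and without any 1 of the 6 h arrays (adjusted p between 0.0505 and 0.0947). Probe 460 was well above background on unelicited replicates 3 and 4 alone, at -4.39 and -4.46, and was not tested. Its dim spots lay between -6.60 and -5.74 at 3 h and between -4.39 and -3.88 at 6 h.

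7Methyl3_chr2.CM0058.300.nd had the widest spread of the unelicited arrays among the tested methyltransferase probes. Probe 513 had log2 signals of -1.96, -5.81, 0.45 and 0.06 at 0 h, of -0.83, -0.81 and -0.78 at 3 h, and of -2.26, -4.36 and -1.65 at 6 h. Unelicited replicate 2 and GSH 6 h replicate 2 were not well above background, and the unelicited arrays covered the whole range of the 3 h arrays. The log2 fold change was 1.01 ± 1.31 at 3 h (adjusted p = 0.493) and -0.94 ± 1.31 at 6 h (adjusted p = 0.525). On slide 2 alone it was -1.06 at 3 h (adjusted p = 0.172) and -3.01 at 6 h (adjusted p = 0.00275), and without unelicited replicate 2 it was -2.27 at 6 h (adjusted p = 0.0219). Probe 514 was well above background only on unelicited replicates 1 and 4, at -4.59 and -4.43.

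**Figure D2:**
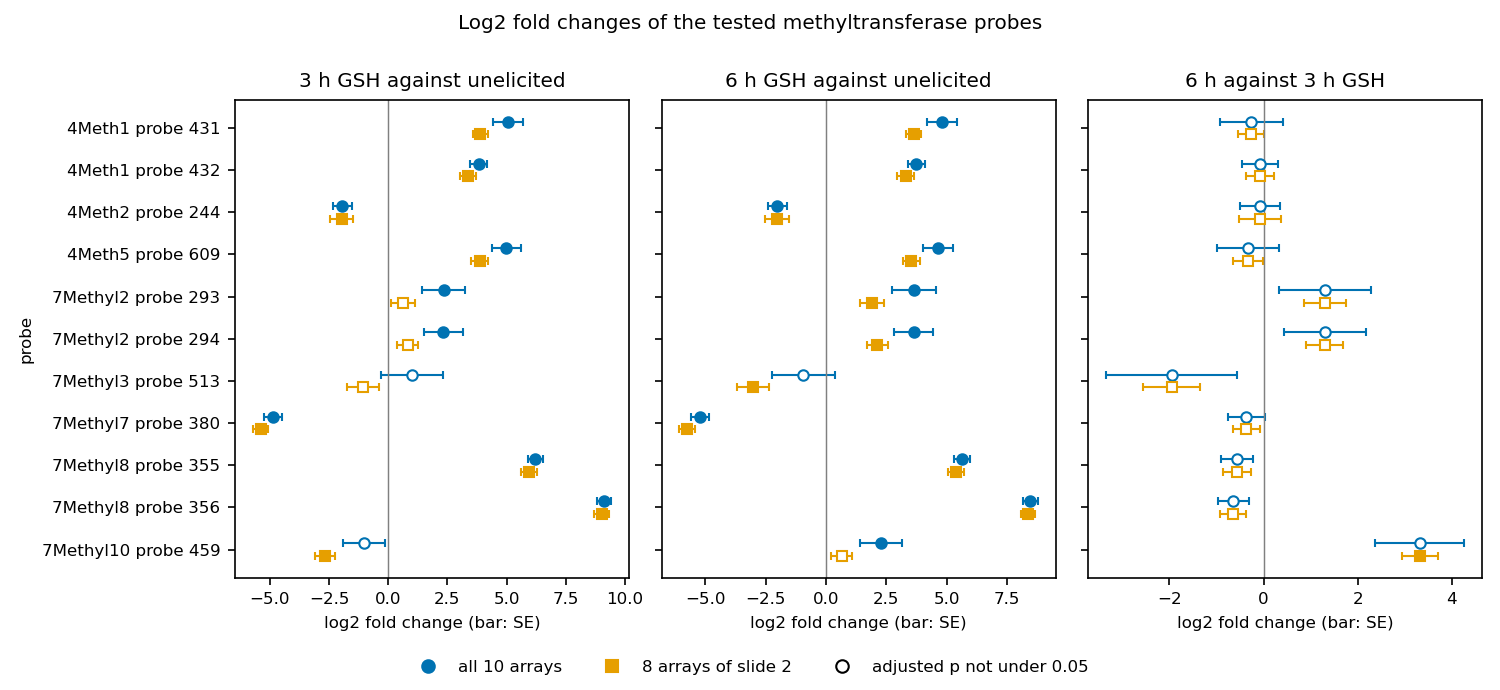
Log2 fold changes with SE of the 11 tested methyltransferase probes in the 3 comparisons, on all 10 arrays (circles) and on the 8 arrays of slide 2 (squares). Filled symbols have a limma adjusted p under 0.05. Probes of 4Meth1, 4Meth5 and 7Methyl8 lie right of 0 and 7Methyl7 left of 0 at both times on either set of arrays, while 7Methyl2, 7Methyl3 and 7Methyl10 shift with the set.

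By prefix, 3 of the 4 tested 4Meth probes were higher at 3 h and 1 was lower, and the 6 h counts were the same. Of the 7 tested 7Methyl probes, 4 were higher at 3 h, 1 was lower and 2 did not pass, and at 6 h 5 were higher, 1 was lower and 1 did not pass. Median log2 fold changes over tested probes were 4.40 for 4Meth and 2.33 for 7Methyl at 3 h, and 4.20 and 3.63 at 6 h, beside -0.05 and -0.07 over all tested probes. On slide 2 alone the 4Meth counts stayed at 3 higher and 1 lower at both times, with medians of 3.62 and 3.42. There the 7Methyl counts were 2 higher, 2 lower and 3 not passed at 3 h and 4 higher, 2 lower and 1 not passed at 6 h, with medians of 0.62 and 1.93. Of all tested probes, slide 2 alone called 78% at 3 h, 39.9% higher and 38.2% lower, and 79.1% at 6 h, 39.6% in each direction. No test was made between the prefixes. Both members of a pair of probes count here, so 4Meth1, 7Methyl2 and 7Methyl8 each enter with both probes.

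Probes that pass the filter only through the group where they are bright had to differ in some direction. This holds for probe 244 of 4Meth2, above background in unelicited leaves alone, and for probe 356 of 7Methyl8, above background in GSH-treated leaves alone. Probe 513 of 7Methyl3 passed through its 3 h arrays and probe 459 of 7Methyl10 through its 6 h arrays. The 6 probes well above background on every array, those of 4Meth1 and 7Methyl2, probe 609 of 4Meth5 and probe 355 of 7Methyl8, were all higher at 3 h and at 6 h on the full set of arrays. Of all 2114 such probes, fitted on their own, 953 were higher at 3 h and 942 at 6 h. These made up 63.6% and 61.9% of the calls, so calls among such probes leaned to the higher side on the array at large. On slide 2 alone neither probe of 7Methyl2 passed at 3 h (adjusted p = 0.273 and 0.116).

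Between 6 h and 3 h of GSH, none of the 11 tested methyltransferase probes passed in limma on all 10 arrays, and 1 had an unadjusted p under 0.05. Of all tested probes, 5.35% passed, 3.35% higher and 1.99% lower at 6 h. That 1 probe was 459 of 7Methyl10 (adjusted p = 0.0730). Set against the lowest signal that counted as above background on each 3 h array, it was 2.29-fold higher at 6 h. Both groups of arrays lie on slide 2. With slide 2 fitted alone this probe passed (adjusted p = 0.00304), as did 15.3% of all tested probes, 8.37% higher and 6.89% lower at 6 h. The probe entered the test only through its 6 h arrays, which favours a higher value at 6 h, so its p-values are no support for a rise between the times. Under normexp its log2 difference was -0.081. With slide as a block, probe 294 of 7Methyl2 passed as well, at a log2 difference of 1.30 (adjusted p = 0.0374), with 10.9% of all tested probes called higher.

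For the strongest responders the interval of the 6 h minus 3 h difference held 0. It ran from -1.75 to 1.23 (log2) on probe 431 of 4Meth1, from -0.92 to 0.78 on probe 432, and from -1.80 to 1.14 on probe 609 of 4Meth5. 7Methyl8 was lower at 6 h by a group mean of -0.56 on probe 355 (95% interval -1.33 to 0.20) and -0.64 on probe 356 (-1.36 to 0.08). 7Methyl7 had a difference of -0.36 (-1.25 to 0.53). On slide 2 alone, the interval of probe 356 ran from -1.26 to -0.02 and left out 0 (limma adjusted p = 0.140). That of probe 355 ran from -1.23 to 0.10 there, and those of 4Meth1, 4Meth5 and 7Methyl7 held 0. Ordered by mean level, 4Meth1, 4Meth5 and 7Methyl8 ran 3 h, 6 h, unelicited, and 7Methyl7 ran unelicited, 3 h, 6 h. For these names the GSH times were not separable at an adjusted p under 0.05 on either set of arrays. 7Methyl2 ran 6 h, 3 h, unelicited, where neighbours in the order were separable only under some settings, and the order of 7Methyl3 and 7Methyl10 depended on the unelicited arrays used.

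4Meth1 and 4Meth5 had nearly the same profile. Likeness was measured as the root mean square difference between log2 profiles over the 10 arrays, each centred on its own mean, with 1869 other targets compared and 1 probe per target. Each of the pair was the nearest target to the other, at a difference of 0.15, against a root mean square of 2.54 for 4Meth1 about its own mean. A transcript named for a heat shock factor, LjHSF8, came next for both, at 0.35 from 4Meth1 and 0.40 from 4Meth5. The profiles share arrays, slides and the contrast between GSH and unelicited leaves, and the likeness is a description. Probes of near-identical transcripts can bind each other's targets. The probe sequences were not available here to compare.

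The other names had nearest profiles at differences between 0.27 and 1.01. LjERF29, named as an ethylene response factor, was nearest to 7Methyl8 at 0.27, followed by PKR1_chr2.CM0191.390.nc, named as a polyketide reductase, at 0.32. LjHD24 was nearest to 4Meth2 at 0.32, and a transcription factor named for a B3 domain to 7Methyl7 at 0.35. The targets nearest to 7Methyl2, 7Methyl10 and 7Methyl3 were LjERF33 at 0.63, LjERF69 at 0.94 and a CYP707A target at 1.01. The root mean squares of these 3 names about their own means were 1.95, 1.74 and 1.86, against 1.07 for 4Meth2. The differences are not scaled to these, so they do not rank how well the names were matched.

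Some of the names carry a clone or contig shared with other genes on the array. The clone of 4Meth1, LjT24P23, also holds CYP93C17_LjT24P23.50.nc, named as an isoflavone synthase, the enzyme that makes the isoflavonoid skeleton. Its brighter probe had a mean log2 signal of 7.70 ± 0.39 at 3 h and 7.34 ± 0.29 at 6 h (SD, n = 3 each), against 4.42 ± 1.41 in unelicited leaves (n = 4), and rose by 3.28 ± 0.65 at 3 h (adjusted p = 0.000992) and 2.92 ± 0.65 at 6 h (adjusted p = 0.00200). The unelicited arrays of this probe had mean log2 signals of 3.22 on slide 1 and 5.62 on slide 2, and on slide 2 alone it rose by 2.08 at 3 h (adjusted p = 0.000371) and 1.72 at 6 h (adjusted p = 0.00111). The contig of 7Methyl2, CM0191, holds 4 polyketide reductase names, PKR1, PKR3, PKR4 and PKR5, enzymes that act with chalcone synthase. On all 8 of their probes the log2 fold change lay between 5.46 and 8.49, above that of 7Methyl2 on the same arrays, and on slide 2 alone between 5.37 and 8.15. The clone of 4Meth5, LjT16L08, holds 4Meth3, 4Meth4 and FHYD09_LjT16L08.100.nd as well, and the contig of 7Methyl3, CM0058, holds 4 more 7Methyl names. Of the 2 probes of FHYD09, which the files do not describe, probe 119 was tested. It was well above background on its 3 h arrays alone, at a mean log2 signal of -3.65 ± 0.48 (SD, n = 3). There it was higher than in unelicited leaves (adjusted p = 2.42e-05, and 0.000107 on slide 2 alone), but it entered the test only through those arrays, which favours such a call. At 6 h it passed too (adjusted p = 0.000606), with all 6 h and unelicited arrays near background. Neither call of FHYD09 is read as a response. None of the 6 other methyltransferase names had a tested probe, so 1 methyltransferase name was tested on each of these clones.

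Other genes named for the isoflavonoid pathway, grouped by name prefix with 1 probe per target, held rising and falling targets at some steps and rising targets alone at others. Their counts stand beside the 37.5% of all tested probes that were higher at either time and the 36.7% and 38.4% that were lower at 3 h and 6 h. All 4 isoflavone synthase targets (CYP93C) rose at both times on 10 arrays, and 3 of 4 at 3 h on slide 2 alone. Of 5 tested targets for 2-hydroxyisoflavanone dehydratase, which forms the isoflavone from the synthase product, 2 rose and 3 fell at both times. Of those that fell, HID8_chr4.CM0079.280.nc was well above background in unelicited leaves alone. It entered the test only through those arrays, which favours a lower call, so its call is no support for a fall. HID3 rose by 4.26 ± 0.47 at 3 h (adjusted p = 1.84e-05) and 3.90 ± 0.47 at 6 h, or by 3.39 and 3.03 on slide 2 alone, while HID5_chr4.CM0079.310.nc fell, with log2 fold changes of -4.45 ± 0.51 and -5.85 ± 0.51, or -5.31 and -6.71 on slide 2 alone. Of 4 isoflavone hydroxylase targets (CYP81E and I2H), 3 rose and 1 fell. I2H3_chr2.CM0250.30.nc rose by 5.76 ± 0.46 at 3 h and by 7.04 ± 0.46 at 6 h, or by 6.48 and 7.75 on slide 2 alone.

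Further along, 4 of 6 isoflavone reductase targets rose at both times, 1 fell at 3 h, and the rest did not pass. On slide 2 alone 4 were higher and 1 lower at each time, but not the same targets. There IFR2 did not pass (adjusted p = 0.0936 at 3 h and 0.297 at 6 h), IFR_11 was higher and IFR5 was lower at both times. IFR6_chr2.CM0249.1070.nc rose by 5.42 ± 1.30 at 3 h (adjusted p = 0.00342), or by 2.77 on slide 2 alone. Vestitone reductase, which reduces the isoflavanone vestitone, had 2 targets that rose and 1 that fell at both times. VR1_chr1.CM1255.320.nc rose by 5.69 ± 0.96 at 3 h and 5.62 ± 0.96 at 6 h, or by 3.79 and 3.72 on slide 2 alone. Both targets of pterocarpan reductase rose at both times, PTR1_chr3.CM0216.40.nd by 8.65 ± 1.10 at 3 h and by 8.79 ± 1.10 at 6 h, or by 6.70 and 6.84 on slide 2 alone. The median of these 2 targets was 6.59 at 3 h and 7.05 at 6 h on all 10 arrays, and 5.18 and 5.64 on slide 2 alone. Like 4Meth1 and 4Meth5, the named targets IFR6, VR1 and PTR1 were brighter on the unelicited arrays of slide 2 than on those of slide 1.

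**Figure D3:**
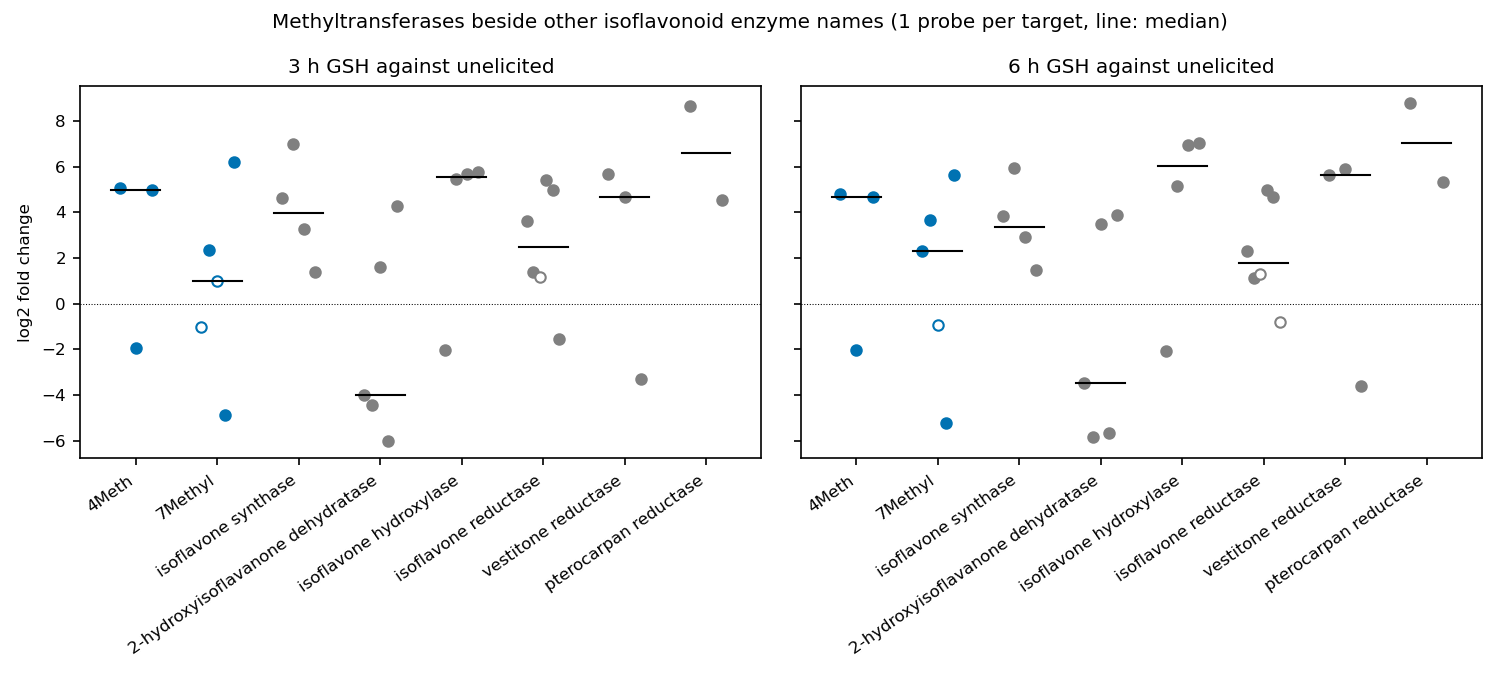
Log2 fold changes at 3 h and at 6 h of GSH against unelicited leaves on all 10 arrays for the 4Meth and 7Methyl targets and 6 groups of named isoflavonoid enzymes. Each point is 1 target, open points have a limma adjusted p of 0.05 or more, and lines are medians. Targets called higher and targets called lower occur under both methyltransferase prefixes and in the dehydratase, hydroxylase and vestitone reductase groups. At 3 h they also occur in the isoflavone reductase group.

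Earlier steps of phenylpropanoid metabolism on the array were read as counts of targets on all 10 arrays. Phenylalanine ammonia-lyase (PAL), the entry enzyme, had 13 targets higher and 1 lower at each time. All 6 cinnamate hydroxylase targets rose at both times. Chalcone synthase, which forms the flavonoid backbone, had 17 of 26 targets higher, 6 lower and 3 not passed at each time. Chalcone reductase had 2 higher and 2 lower, and chalcone isomerase had 1 higher and 2 lower of 6 at 3 h and 1 higher and 1 lower at 6 h. With slide 2 alone, the 3 h count of chalcone isomerase was 1 higher and 5 lower.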

How the data were processed

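Arrays were scanned and extracted with Agilent Feature Extraction 10.7.3.1, per the submitters' processing notes. The deposited processed signals are intensity values on a linear scale, background-subtracted and spatially detrended per the file headers and not normalized between arrays. The deposited value table of the series held identical values (largest relative difference 0). Levels are log2 signals from which each array's 75th percentile of non-control probes (a signal of 227.25 to 1022.5) was subtracted on the log2 scale. Outlier spots (4 to 64 per array, 0 among member probes) were left out. The filter kept 3310 probes that were well above background throughout at least 1 group, of which 3309 gave an estimate.

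Group means over all 10 arrays were fitted with limma 3.58.1 in R 4.3.3 (lmFit, eBayes). The prior degrees of freedom were 3.05, tests were two-sided, and p-values were adjusted by Benjamini-Hochberg over all tested probes with a threshold of 0.05. Slide and scan coincide in the file headers. Slide was used as a block and slide 2 was fitted alone. Where a probe was near background throughout a group, a fold was taken against the higher of 2 signals on each of those arrays. These were its own signal and the lowest signal well above background. Such a fold is not a strict bound, since some brighter spots were not marked well above background and another background correction changed it. On simulated data (3310 probes, 3 h comparison), 24%, 68%, 94% and 92% of probes changed by a log2 of 1, 2, 3 and 4 were recovered, with 7 false calls. There 50 probes were changed at each size and no slide difference was simulated. In the data 74.2% of probes were called at 3 h, so these rates do not carry over to them.

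Named genes are the 8 names and all their probes, the 2 targets with the most similar profile to each, and the largest change and brightest target of each enzyme prefix, of which the text gives a part. Genes sharing a clone or contig were chosen after values were seen. The members and lists were chosen with earlier results of these data known. Of the array's names and loci, 0 matched the 40429 genes of the reference table (RefSeq, LjGifu_v1.2), so no positions or sequences are given. Figures used matplotlib 3.10.9 under Python 3.11.15.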

Additional observations from a re-analysis of the deposited data

Results flagged for a closer look

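Among the 7 methyltransferase names without a tested probe, 4 of 140 spots were well above background. A GSH array exceeded every unelicited array in 2 of those cases, with no unelicited array above background. Probe 24 of 7Methyl4_chr2.CM0058.220.nd had a log2 signal of -4.66 on GSH 3 h replicate 2, and probe 165 of 4Meth3_LjT16L08.140.nd had -4.29 on GSH 3 h replicate 1. Each was seen on 1 of 3 arrays of the group and on 1 of the 2 probes of its name. The other 2 spots were on unelicited arrays, probe 151 of 7Methy1_chr2.CM0058.270.nd at -3.88 on replicate 2 and probe 441 of 7Methyl9_chr2.CM0058.260.nd at -5.15 on replicate 1.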

How the results depend on the processing

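The rises of 4Meth1 (both probes), probe 609 of 4Meth5, 7Methyl8 (both probes) and the fall of probe 380 of 7Methyl7 passed under every alternative in which the probe was tested, at both times. For probe 431 of 4Meth1 the log2 fold change ranged from 2.14 to 5.50 at 3 h and from 1.96 to 5.24 at 6 h, with the lowest values under quantile normalization. Probe 609 of 4Meth5 ranged from 2.39 to 5.45 and from 1.83 to 5.12. The cause of these shifts was not tested.

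At 3 h, probe 513 of 7Methyl3 reversed to -0.053 when arrays were scaled on probes above background everywhere, to -1.06 with slide as a block and on slide 2 alone, and to -0.32 without unelicited replicate 2, while leaving out any other array kept it positive, at up to 1.77. Under normexp at 3 h, probe 459 of 7Methyl10 was at 0.62 and probe 244 of 4Meth2 at 0.40. The 6 h call of probe 459 was lost under normexp (0.53) and with the scaling on probes above background everywhere (1.22). In the 6 h against 3 h comparison, normexp gave 0.30 for probe 432 and 0.20 for probe 431 of 4Meth1, 0.15 for probe 609 of 4Meth5 and -0.081 for probe 459 of 7Methyl10, and leaving out 1 array gave -0.20 to 0.0078 for probe 432 and -0.35 to 0.41 for probe 244 of 4Meth2.

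Methyltransferase probes called lower numbered 1 under normexp at both times, 1 under quantile normalization at 3 h, and 0 at both times when only probes above background on every array were kept, which leaves 6 member probes. At 6 h against 3 h, 1 was higher under quantile normalization, 1 on slide 2 alone and 2 with slide as a block. Without 1 array, between 5 and 7 were higher and 2 or 3 lower at 3 h, 7 or 8 and 2 or 3 at 6 h, and 0 or 1 higher at 6 h against 3 h, the 1 being probe 459 without unelicited replicate 1 or 3.

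Of all probes, 2456, 2511 and 177 changed at 3 h, at 6 h and at 6 h against 3 h. Normexp gave 1576 at 3 h and 19 at 6 h against 3 h, with 998 of the 1576 higher. Keeping only probes above background on every array gave 1499 at 3 h and 1523 at 6 h, from 2114 tested. For 6 h against 3 h, quantile normalization gave 112, no filter 109, slide as a block 660, slide 2 alone 505, and leaving out 1 array from 26 (without GSH 6 h replicate 2) to 194. Leaving out 1 array gave 2237 to 2459 at 3 h and 2311 to 2528 at 6 h. Scaling on probes above background everywhere moved the median log2 fold change of all probes to -1.11 at 3 h and -1.13 at 6 h, with 801 higher and 1660 lower at 3 h and 835 and 1680 at 6 h.

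Same-numbered samples showed no shared deviation (correlations of deviations from -0.04 to 0.06), and the main fit used no pairing. Deviations of the unelicited arrays carry the difference between slides, so the check cannot exclude a pairing with them. With the replicate number as a block, 2432, 2461 and 80 probes changed, and the methyltransferase counts did not move. Signal over background limits 4Meth2, 7Methyl3 and 7Methyl10, each read from 1 probe that was dim on some arrays.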
